A study of Mus musculus with 8 samples.

Results

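Natural killer T (NKT) cells of the mouse kidney were followed through 8 single-cell libraries, as the cells to which the authors' deposited class column gives the name NKT. There were 636 such cells of 77393 in all, 240 in Control and 396 in UUO libraries. Controls 1 to 6 held 14, 12, 36, 68, 65 and 45 of them, and UUO 1 and 2 held 156 and 240. All libraries were whole kidney of C57BL/6 mice of 7 weeks: 6 Control libraries with the disease label control, and 2 libraries labelled unilateral ureteric obstruction (UUO), a model in which a tied ureter dams urine back into the kidney. The protocol text, which is the same for every library, gives ligation of the left ureter and killing on day 7, so the treatment of the Control animals is not stated there. Sex and the number of animals per library are not given either. No genotype, allele or drug is named for either group.

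NKT cells are T lymphocytes that carry both a T cell receptor and receptors typical of natural killer (NK) cells. Many recognise lipids presented by the CD1d molecule rather than peptides, and they release cytokines within hours of stimulation, before conventional T cells have expanded. In the kidney they are a small resident and recruited population known from work on ischaemic and immune-mediated injury. The defining markers are Cd3e, a signalling chain of the T cell receptor complex, and Klrb1c, an NK cell receptor gene. Gene-level counts are not analysed here, so the class was not checked against either marker, nor against markers of NK cells, γδ T cells or innate lymphoid cells that such a class could hold. What follows rests on cell numbers, on UMIs (unique transcript molecules), genes detected and mitochondrial UMIs per cell, and on the deposited embedding.

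Libraries held 2263 to 18393 cells and 4375942 to 56755823 UMIs, of which NKT cells gave 14540 to 555682. Controls 3 and 4, whose numbers of cells over the 28 classes differed little (chi-square p = 0.0509), were counted as 1 sample, Control 3+4, which left 5 Control samples against 2 UUO samples. Nothing in the labels ties the libraries to different animals, and the spread that the p-values measure may therefore be technical. Of 74073 barcodes, 3243 occurred in more than 1 library. Among NKT cells 49 had such a barcode, and 0 matched the other cell in both UMIs and genes.

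NKT cells were a minor class, at under 2% of the cells of every library, and their share of all cells overlapped between the groups. They made up 0.389% of all cells in Control 1, 0.187% in Control 2, 1.59% in Control 3, 1.72% in Control 4, 0.402% in Control 5 and 0.330% in Control 6, and 0.848% in UUO 1 and 1.86% in UUO 2. Controls 3 and 4 stood apart from the other Controls, above UUO 1 and below UUO 2, with intervals that overlapped that of UUO 2. Their exact (Clopper-Pearson) 95% binomial intervals, which cover counting error only, were 1.12% to 2.20% and 1.34% to 2.18%, against 1.63% to 2.10% for UUO 2. Both UUO samples lay above the other 4 Control libraries, where the highest upper bound was 0.652%. The log2 odds difference of UUO over Control was 1.51 (95% interval -0.16 to 3.17, limma adjusted p = 0.118), which did not pass 0.05. In that comparison 50% of the 28 classes passed with limma, 12 with edgeR and 0 by adjusted exact permutation. For NKT cells the edgeR adjusted p was 0.277 and the two-sided exact permutation p 0.238. Without Controls 3 and 4 the difference was 1.99 and passed (limma adjusted p = 0.0166), so the limma call turned on those libraries. How many of the 28 classes passed without them is not given here.

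As a share of lymphocytes the order was different: UUO 1 had the lowest value, and UUO 2 lay among the lower Controls. The 9 lymphoid classes are the T, NKT, NK, B and proliferating lymphocyte classes. NKT cells were 8%, 6.94%, 16.3%, 14.8%, 11.99% and 11.2% of lymphoid cells in Controls 1 to 6, and 6.06% and 8.01% in UUO 1 and 2. UUO 2 lay just above Controls 1 and 2, so the groups overlapped. Means were 7.03% ± 1.38 (SD, n = 2) in UUO and 10.7% ± 3.32 (SD, n = 5) in Control. The log2 odds difference was -0.64 (95% interval -1.63 to 0.35, limma adjusted p = 0.419; two-sided exact permutation p = 0.190). No class passed in this comparison, 0% of 9 with limma or edgeR, with 2 at an unadjusted p under 0.05 in either.

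Among all 15 immune classes, lymphoid and myeloid together, NKT cells were 4.68%, 4.27%, 13.8%, 12.9%, 7.64% and 6.35% of immune cells in Controls 1 to 6 and 4.87% and 6.47% in UUO 1 and 2. Both UUO values fell inside the Control range. The log2 odds difference was -0.29 (95% interval -1.72 to 1.14, limma adjusted p = 0.770). Here too 0% of classes passed with limma or edgeR, with 2 (limma) and 1 (edgeR) at an unadjusted p under 0.05. By number of cells NKT ranked 3 or 4 among the 9 lymphoid classes in each of the 6 Control libraries and 7 in both UUO libraries. CD4 T cells were the most numerous lymphoid class in both UUO libraries and in Controls 1, 5 and 6.

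**Figure D1:**
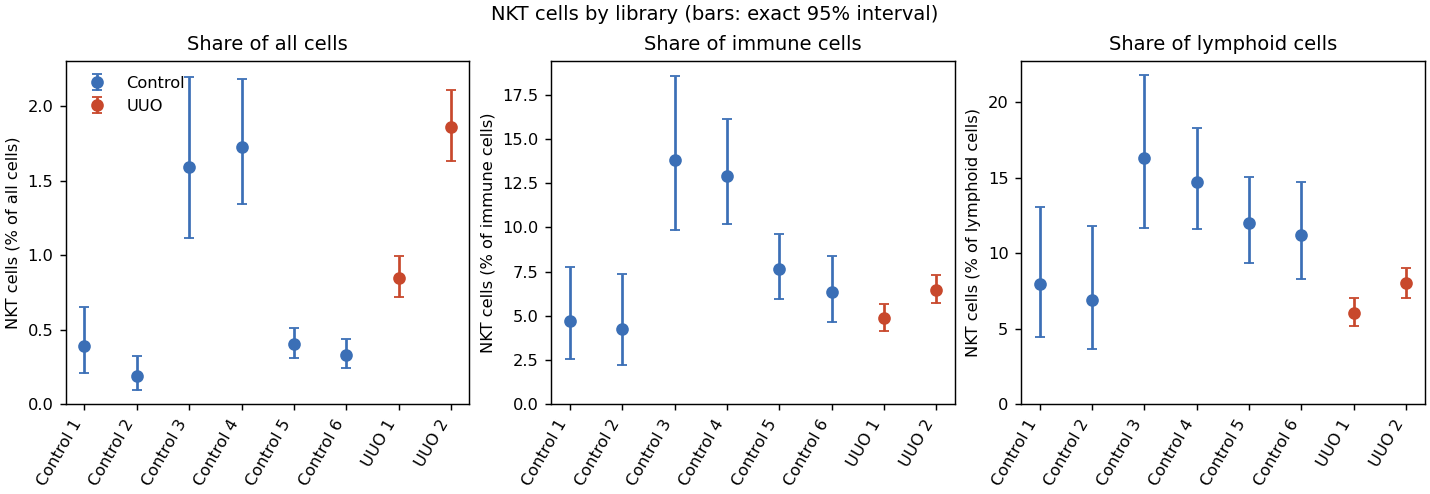
NKT cells in each of the 8 libraries as a percentage of all cells (left), of immune cells (middle) and of lymphoid cells (right), with exact 95% binomial intervals as bars. Controls 3 and 4 stand above the other Control libraries in all panels, and UUO 1 has the lowest lymphoid share, 6.06%.

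The change of rank was traced class by class, as the number of NKT cells per cell of each other immune class. Such a ratio does not depend on how many tubular cells a library holds. NKT cells outnumbered Th17 cells, the interleukin-17-producing helper T cells, in every Control library and were outnumbered by them in both UUO libraries. The ratio, with 0.5 added to each number, was 1.71, 1.09, 1.97, 2.11, 1.54 and 1.94 in Controls 1 to 6, and 0.441 and 0.677 in UUO 1 and 2. The groups did not overlap, and the log2 difference was -1.58 (two-sided exact permutation p = 0.0476, the smallest that 5 against 2 samples allow). The change of order was not particular to NKT cells. NK cells numbered 13, 19, 128, 58 and 54 in the 5 Control samples, against 8, 11, 50, 42 and 23 Th17 cells. In UUO 1 and 2 there were 235 and 295 NK cells against 354 and 355 Th17 cells.

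CD8 effector cells, the cytotoxic T class, gave the same picture for NKT cells. NKT cells per CD8 effector cell were 1.16, 1.09, 3.84, 1.78, 2.15 and 2.12 in Controls 1 to 6, and 0.723 and 0.634 in UUO 1 and 2, a log2 difference of -1.29 (exact permutation p = 0.0476). Per CD8 T cell outside the effector class they were 1.38, 1.67, 1, 1, 3.05 and 1.60 in the Controls, and 0.656 and 0.713 in UUO, a log2 difference of -1.25 (exact permutation p = 0.0476). In all 3 of these ratios every Control library stood above both UUO libraries. As a share of immune cells the log2 odds difference was 1.41 for Th17, 1.10 for CD8 effector and 1.03 for CD8 T cells. For NKT cells it was -0.29, and none of them passed (limma adjusted p = 0.301, 0.352, 0.390 and 0.770). NK cells too were outnumbered by CD8 T cells in UUO, at 235 against 238 and 295 against 337. They outnumbered CD8 effector cells in UUO 1, at 235 against 216.

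Against regulatory T cells (Treg), the suppressive T cell class, NKT cells numbered 1.26, 2.27, 0.723, 0.573, 1.75 and 1.36 per Treg cell in Controls 1 to 6 and 0.478 and 0.602 in UUO. Control 4 alone lay between the UUO libraries, and the pooled Control 3+4 above them. The log2 difference was -1.31 (exact permutation p = 0.0952). Most Treg cells of Controls 5 and 6 had a high mitochondrial share: 27 of 37 and 26 of 33 were at or above 10%, against 33 of 327 in UUO 1 and 97 of 399 in UUO 2. Without cells at or above 10% the ratio was 1.71, 3.57, 0.717, 0.598, 4.62 and 5 in Controls 1 to 6. It was 0.514 and 0.722 in UUO 1 and 2. Controls 3 and 4 then lay between the UUO libraries, so the groups overlapped. The log2 difference over all samples was -2.01 (exact permutation p = 0.143). Basophils, rare granulocytes, were the other class without overlap: the log2 ratio of NKT cells to basophils lay between 2.32 and 4.19 in Control and at 1.88 and 2.18 in UUO, a difference of -1.24 (exact permutation p = 0.0952), on 1 to 9 basophils per Control library.

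For NK cells, the innate cytotoxic lymphocytes, the ratio overlapped between the groups. There were 1.07, 0.641, 0.768, 0.840, 1.12 and 0.835 NKT cells per NK cell in Controls 1 to 6 and 0.665 and 0.814 in UUO 1 and 2. Both UUO values lay inside the Control range, with a log2 difference of -0.26 (exact permutation p = 0.476). The ratio to CD4 T cells was 0.166 and 0.300 in UUO and ran from 0.261 to 1.62 over the Control libraries, with a log2 difference of -1.03 (exact permutation p = 0.381). With all cells counted, 8 of the 14 ratios were lower and 6 higher in UUO, and 5 did not overlap between the groups. Unadjusted, 3 had an exact permutation p under 0.05. After Benjamini-Hochberg adjustment 0 passed (0%; lowest adjusted p = 0.222, exact permutation). All 14 share the NKT number as numerator and are not independent of each other.

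**Figure D2:**
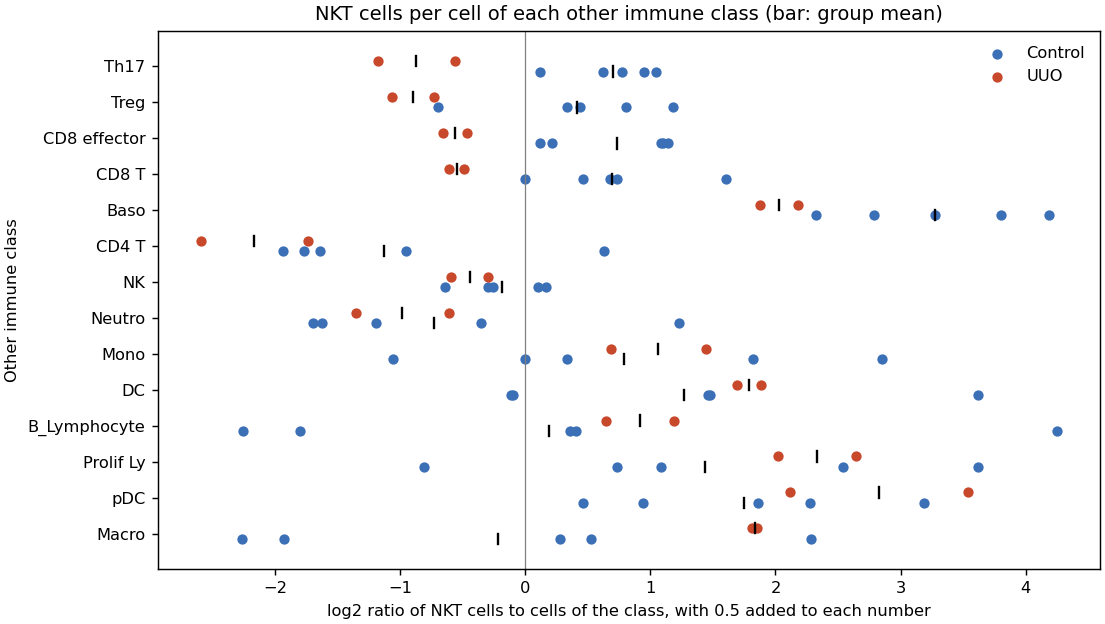
Log2 ratio of the number of NKT cells to the number of cells of each of 14 other immune classes (0.5 added to both), 1 point per sample for 5 Control and 2 UUO samples, with the group mean as a bar. The UUO points lie to the left of all Control points for Th17, Treg, CD8 effector, CD8 T and Baso, and inside the Control range for NK.

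NKT cells ranked 5 to 7 among the lymphoid classes by median UMIs in each sample tested. Both UUO libraries had the highest medians, a difference that did not pass the limma test. Over all 636 cells UMIs ran from 514 to 8462 with a median of 1778.5, and genes detected from 345 to 2508 with a median of 860.5. Median UMIs per NKT cell were 1074.5 in Control 1, 1242 in Control 2, 1787.5 in Control 3, 1480 in Control 4, 1536 in Control 5 and 1429 in Control 6, against 1793 in UUO 1 and 2115 in UUO 2. Both UUO medians were the highest, though UUO 1 and Control 3 were almost level. Median genes per NKT cell were 570.5, 690.5, 883.5, 776.5, 751 and 712 in Controls 1 to 6, and 889.5 and 946 in UUO, so both UUO libraries again had the highest values.

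The test used the 3 Control and 2 UUO samples with at least 20 NKT cells. UMIs in UUO were 1.29 times those in Control (95% interval 0.863 to 1.93, limma adjusted p = 0.336 over 19 classes), and genes 1.21 times (0.883 to 1.66, limma adjusted p = 0.366). Neither passed, while 10.5% of the 19 classes passed in UMIs and 5.26% in genes. Over all 5 Control and 2 UUO samples the unadjusted exact permutation p was 0.0476 for UMIs and for genes, the smallest possible. That set includes Controls 1 and 2, with 14 and 12 NKT cells. With at least 10 cells per sample the limma adjusted p was 0.264 for UMIs and 0.223 for genes. NKT cells were near the middle of the field, at rank 12 of 19 classes in both measures when counted from the highest ratio. The median log2 UMI difference over the 19 classes was 0.40, against 0.37 for NKT cells. The other lymphoid cells of the same libraries had medians of 1185 to 2280 UMIs in Control and of 2030 and 2128 in UUO. Taken relative to the median of all lymphoid cells in each sample, the NKT difference was 0.13 on the log2 scale (limma adjusted p = 0.834).

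A few NKT cells carried far more RNA than the rest. Cells with over 2 times their library's median UMIs numbered 0, 0, 1, 3, 1 and 1 in Controls 1 to 6. That is 0%, 0%, 2.78%, 4.41%, 1.54% and 2.22% of their NKT cells. In UUO 1 and 2 they numbered 9 of 156 and 13 of 240, or 5.77% and 5.42%. No doublet caller was run, and the part of doublets in these cells was not tested. At the lower end, cells under 1000 UMIs made up 2.78% to 42.9% of NKT cells over the 6 Control libraries. They made up 8.33% and 2.5% in UUO 1 and 2, so the groups overlapped. The exact permutation p was 0.286 over all 5 Control and 2 UUO samples, and 0.40 over those with at least 20 NKT cells.

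The mitochondrial share of NKT cells set libraries apart more than groups. Median mitochondrial UMIs were 3.34%, 2.79%, 1.55%, 2.05%, 5.22% and 5.65% of a cell's UMIs in Controls 1 to 6, and 2.88% and 3.54% in UUO 1 and 2. Controls 5 and 6 were the highest, Controls 3 and 4 the lowest, and both UUO libraries in between. The other lymphoid cells followed the same pattern, at 5.74% and 5.53% in Controls 5 and 6, 1.55% and 1.92% in Controls 3 and 4, and 2.66% and 3.36% in UUO. NKT cells at or above 10% numbered 17 of 65 in Control 5 and 8 of 45 in Control 6, which is 26.2% (16.0% to 38.5%) and 17.8% (8.002% to 32.1%). In UUO 1 and 2 they numbered 5 and 22, or 3.21% and 9.17%, and in Controls 1 to 4 there was 1 in all. The group difference in medians was -0.97 percentage points (95% interval -6.24 to 4.29, limma adjusted p = 0.887). It was -0.46 without Control 5, -0.25 without Control 6, -0.64 without UUO 1 and -2.22 without Controls 3 and 4. In this comparison 0% of 19 classes passed in limma, with 0 at an unadjusted p under 0.05. The NKT difference had the other sign, 0.355, relative to all lymphoid cells of each sample.

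**Figure D3:**
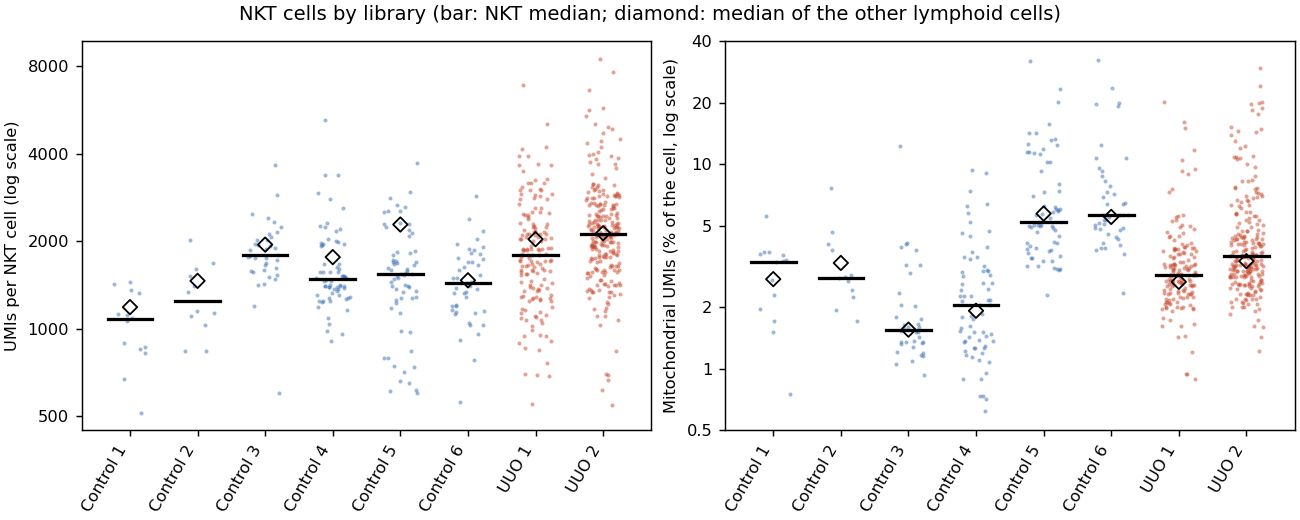
UMIs (left) and mitochondrial percentage (right) of each NKT cell by library, on log axes, with the NKT median as a bar and the median of the other lymphoid cells of the library as a diamond. NKT medians follow the diamonds closely in mitochondrial percentage, from 1.55% in Control 3 to 5.65% in Control 6.

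NKT cells were then compared with NK cells and with the CD4 T and CD8 T classes within each sample, so that a library's depth enters both sides. The classes were called by the authors on these same cells, and the tests cover the 5 samples with at least 20 cells of both classes, where the smallest exact p is 0.0625. NKT cells held fewer UMIs than CD4 T cells in 5 of 5 samples, by 0.23 ± 0.22 (SD, n = 5) on the log2 scale, a ratio of 0.851 (two-sided exact sign-flip p = 0.0625, adjusted p = 0.188 over 3 classes). With samples of at least 10 cells the CD4 T comparison covered 7 samples and passed, at -0.30 (exact sign-flip adjusted p = 0.0469). Against NK cells the log2 difference was -0.09 ± 0.26 (SD, n = 5; exact p = 0.50), with both signs among samples. Against CD8 T cells it was 0.17 ± 0.16 (SD, n = 5; exact p = 0.125, adjusted p = 0.188), higher in 4 of 5 samples. Among cells of at least 1000 UMIs that last difference had the other sign, at -0.01.

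In genes detected the difference from CD4 T cells was 0.12 ± 0.14 on the log2 scale (SD, n = 5; exact p = 0.25), the other sign from UMIs, which led to a comparison at equal depth. It was chosen after the values were seen. Genes were read off a straight-line fit of log2 genes on log2 UMIs within each class and sample, at 1500 UMIs. NKT cells reached 779 genes in Control 3+4, 737 in Control 5, 716 in Control 6, 766 in UUO 1 and 768 in UUO 2. CD4 T cells reached 670, 622, 596, 665 and 655 in the same samples, below NKT cells in each.

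NKT cells detected 1.17 times as many genes as CD4 T cells at an equal number of UMIs, a log2 difference of 0.23 ± 0.02 (SD, n = 5), higher in 5 of 5 samples (exact sign-flip p = 0.0625, adjusted p = 0.125 over 6 classes). With samples of at least 10 cells it was 0.26 ± 0.05 (SD, n = 7), higher in 7 of 7 (exact p = 0.0156, adjusted p = 0.0625). NK cells reached 780, 725, 713, 768 and 767 genes, a log2 difference from NKT cells of 0.0056 ± 0.011 (SD, n = 5; exact p = 0.312). NKT cells were above CD8 T cells in 5 of 5 samples by 0.06 ± 0.04 and below Th17 cells in 5 of 5 by 0.03 ± 0.02 (SD, n = 5; exact p = 0.0625 each, adjusted p = 0.125). The CD8 effector and Treg differences, -0.0059 and 0.08, had both signs among samples (exact p = 0.812 and 0.25). Treg cells reached 629 and 649 genes in Controls 5 and 6, the libraries of their high mitochondrial shares, and 762 to 780 elsewhere. Without cells at or above 10% mitochondrial UMIs the Treg difference was -0.03.

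Between the groups the number of genes at 1500 UMIs differed by less than the spread among Controls. UUO samples averaged 767 ± 1.82 genes (SD, n = 2) and Control samples 744 ± 31.7 (SD, n = 3), which is 1.03-fold (two-sided exact permutation p = 0.40, smallest possible 0.10). Among the tested samples Controls 5 and 6 were the lowest and Control 3+4 the highest, with both UUO samples between them. The small samples, not in this test, reached 774 genes in Control 1 (14 cells) and 790 in Control 2 (12 cells), the latter above every tested sample.

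**Figure D4:**
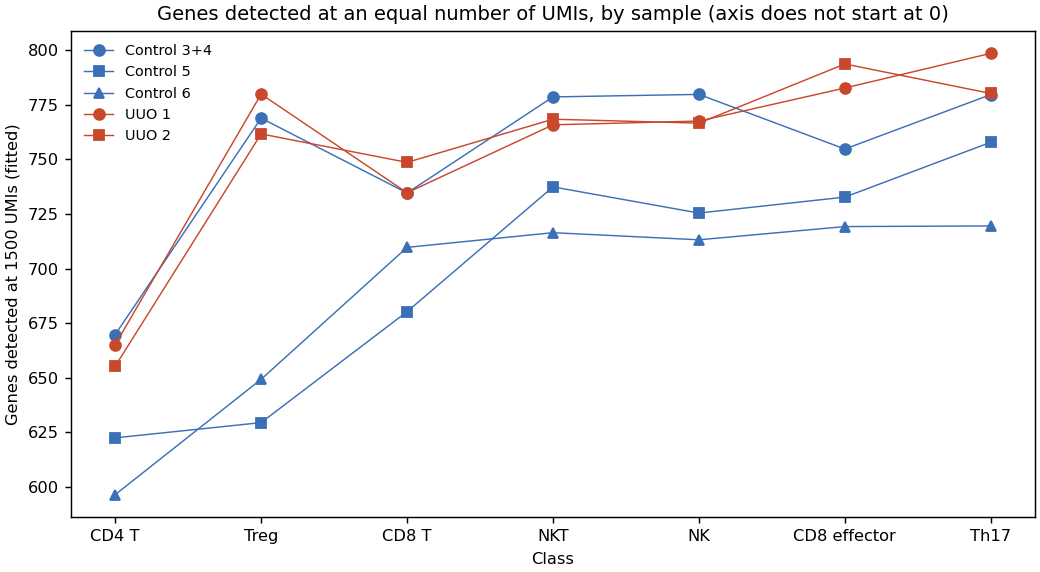
Genes detected at 1500 UMIs, from the fit within each class and sample, for NKT cells and 6 other T and NK classes in the 5 samples with at least 20 NKT cells. Each line is 1 sample. CD4 T cells lie between 596 and 670 genes in all 5, below NKT cells at 716 to 779, and NK cells lie level with NKT cells.

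The mitochondrial percentage of NKT cells lay slightly above that of NK and CD8 T cells in the 5 samples tested, without passing the test. The within-sample difference from NK cells was 0.373 ± 0.208 percentage points and that from CD8 T cells 0.301 ± 0.129 (SD, n = 5; exact sign-flip p = 0.0625 each, adjusted p = 0.0938), higher in 5 of 5 samples in both. The difference from CD4 T cells was 0.128 ± 0.379 (SD, n = 5; exact p = 0.375). With samples of at least 10 cells they were 0.352 and 0.379 (exact sign-flip adjusted p = 0.117 and 0.0938), and Control 2 had the other sign against NK cells, at 2.79% in NKT and 3.16% in NK cells. Among the alternatives run, the differences passed only where Controls 3 and 4, pooled otherwise, counted as 2 samples, at 0.372 and 0.312 (exact sign-flip adjusted p = 0.0469).

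In the deposited embedding, a two-dimensional map of 25200 cells with no unit, NKT cells formed a band that ran from the edge of the CD8 T and Treg areas towards the NK cells. Such a map keeps near neighbours better than far distances, its settings are not given, and the values are descriptions. No cell of the proximal tubule (PT) class is on it. The CD8 T class had the nearest median position, 1.19 units from that of NKT cells, followed by Treg at 1.67, CD8 effector at 2.07, Th17 at 2.95, CD4 T at 3.72 and NK at 3.92. The median distance of an NKT cell from its own class's median position was 0.60. By nearest class median, 405 of the 636 NKT cells lay closest to CD8 T, 123 to Treg, 88 to CD8 effector, 17 to NK and 3 to Th17. For 237 cells the 2 nearest class medians were within 0.2 units of each other, so these numbers divide a continuous band.

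The 15 nearest cells of an NKT cell were NKT cells in 81.8% of cases, against 2.52% NKT among all embedded cells. The authors made both the classes and the map from these same cells, so a share above 2.52% does not test the class. Neighbours were sought among the embedded cells of all libraries together. CD8 T cells made up 8.75% of the neighbours and Treg cells 6.57%, while NK cells made up 1.35%, CD8 effector 0.681%, Th17 0.440% and CD4 T 0.241%. For 293 NKT cells all 15 neighbours were NKT, and for 15 none was. A majority of NKT neighbours was found around 543 cells, or 85.4%. Only 4 cells lay over 3 units from the class's median position, 2 of them mostly among Th17 cells, 1 among NK cells and 1 among connecting tubule (CNT) cells.

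Neither the position nor the mixing of NKT cells passed a test between the groups. NKT cells made up 82.9%, 78.9%, 82.0%, 76.9% and 75.9% of the neighbours in Control 1, Control 2, Control 3+4, Control 5 and Control 6, and 86.0% and 81.5% in UUO 1 and 2. UUO 1 was the highest, and UUO 2 lay within the Control range. Over samples of at least 20 cells the means were 83.8% ± 3.20 (SD, n = 2) in UUO and 78.3% ± 3.28 (SD, n = 3) in Control (two-sided exact permutation p = 0.30). The difference, 5.51 points, was 2.90 without UUO 1 and 8.28 without UUO 2. The group means of the median positions lay 0.258 units apart, less than the spread of the class itself (exact permutation p = 0.20, smallest possible 0.10).

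Among the other classes, Treg neighbours had the widest range over samples. They were 10.95%, 11.1%, 5.45%, 11.6% and 13.2% of the neighbours in Control 1, Control 2, Control 3+4, Control 5 and Control 6, and 3.42% and 6.03% in UUO 1 and 2. Only the pooled Control 3+4 lay within the UUO range. As neighbours could come from any library, these shares do not measure mixing within a sample. Of the 183 Treg cells next to NKT cells, 75 came from Control and 108 from UUO libraries. Among the 183, 23 were at or above 10% mitochondrial UMIs, or 12.6%, against 194 of all 981 Treg cells, or 19.8%. NK neighbours were 2.69% and 1.19% in UUO 1 and 2 and 0% to 1.57% over the 6 Control libraries, with Control 4 above UUO 2. Of the 17 NKT cells nearest to the NK median 15 came from UUO libraries, which gave 396 of the 636 NKT cells.

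NKT cells without an NKT majority around them were set beside the others for RNA content. In the 4 samples with at least 10 of both kinds, the ratio of their median UMIs was 1.14, higher in 3 of 4 samples (exact sign-flip p = 0.25, smallest possible 0.125). The mitochondrial difference was -0.07 ± 0.59 percentage points (SD, n = 4; exact sign-flip p = 1). In UUO 1 the 16 mixed cells held a median of 2316.5 UMIs against 1755 in the other 140. In Control 3+4 the order was the other way, 1520 in 15 mixed cells against 1590 in 89.

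**Figure D5:**
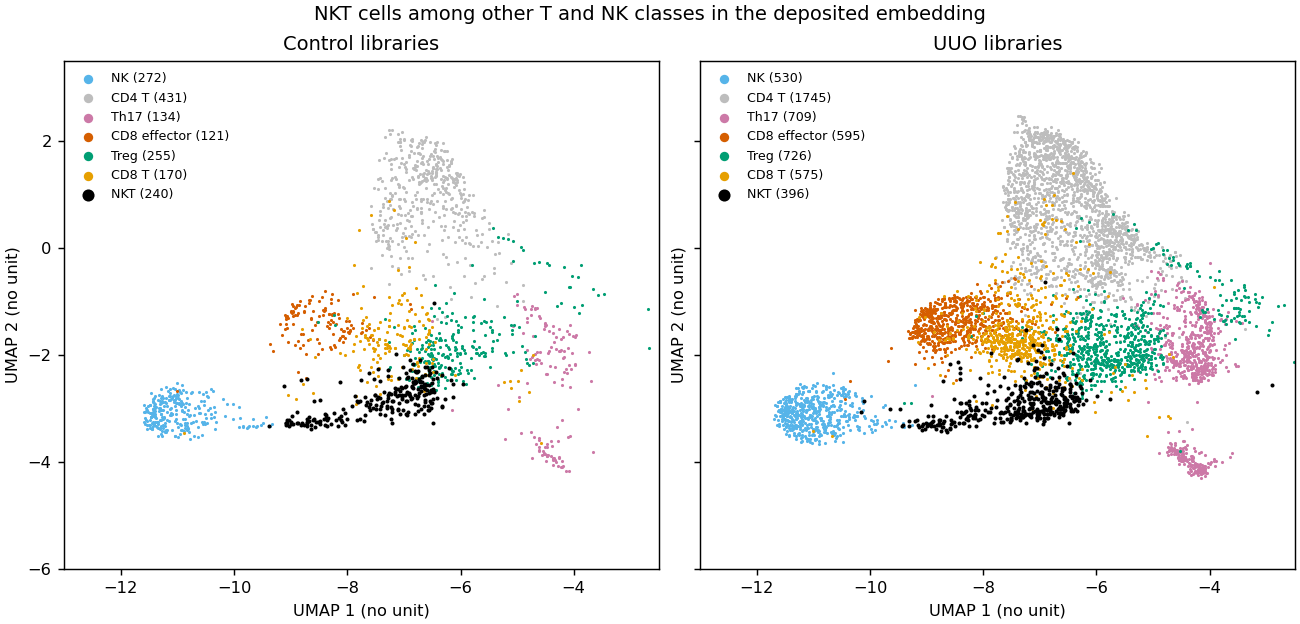
Positions of NKT cells (black) and 6 other T and NK classes in the deposited embedding, Control libraries left and UUO libraries right, with the number of cells per class in the legend and axes without unit (1 NKT cell lies outside the frame). NKT cells run in a band below CD8 T and Treg cells towards the NK cells in both groups.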

How the data were processed

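Whole-kidney suspensions gave 10x Chromium 3′ single-cell data, per the labels' protocols. Cell Ranger 6.0.1, Seurat 4.0.1 and the build mm10 are named, without role or settings, in the submitters' processing notes. Cell filters, classing and embedding settings are not given there. UMIs and genes per cell are whole counts made by the authors and not normalized, per the file headers, the mitochondrial share is a percent, per the file headers; the deposited embedding coordinates are a score with no unit. Groups came from the titles, and 0 per-sample columns were left out.

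Shares were fitted over all classes on the log2 odds scale (0.5 cells added) with limma 3.58.1 in R 4.3.3, Benjamini-Hochberg adjusted, with a threshold of 0.05. In the fit of all cells limma's variance was shared fully across classes (140 degrees of freedom), so its interval is not the NKT class's own spread. Medians per sample (at least 20 cells) were fitted likewise over the 19 classes with 2 or more such samples in each group. Ratios, genes at 1500 UMIs and embedding measures were tested by exact permutation over samples, and comparisons within samples by exact sign flips. Binomial intervals for single libraries reflect cell counting alone, and 0 cells in the smallest library allow a share of up to 0.133%. Functions were tested on simulated data. Alternatives included edgeR 4.0.16 on cell numbers, other cell, UMI and mitochondrial minimums or limits, all 8 libraries kept separate, libraries over 10000 cells only, a replicate block and leaving out each library.

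The members, lists, comparators and tests were chosen with earlier results of these data known. Classes named were NK, CD4 T, CD8 T, CD8 effector, Th17 and Treg, any class over 5 percent of the embedding neighbours, and in the ratios any class at the smallest possible p. Basophils and the equal-depth, mitochondrial and nearest-class comparisons between classes were chosen after values were seen.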

Additional observations from a re-analysis of the deposited data

Results flagged for a closer look

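The pooled Control 3+4 held NKT cells at 1.67% of its cells, far from the other 4 Control samples, of which the nearest was Control 5 at 0.402%. The gap was 0.855 of the Control range, above the 0.71 that marks 1 of 5 samples as standing apart. Chance marks about 1 in 20 groups, and 22 groups were looked at. The 2 libraries behind it gave alike values, 1.59% and 1.72%. High values there were not particular to NKT cells. NK, CD8 T and Treg cells were 18.0% and 15.4%, 13.8% and 12.9%, and 19.2% and 22.6% of immune cells in Controls 3 and 4. Their highest shares in the other Control libraries were 7.62%, 3.95% and 4.65%. CD4 T cells went the other way, at 8.43% and 8.56% against 14.8% to 19.9%. Both libraries also had the lowest median mitochondrial percentages of NKT cells, 1.55% and 2.05%, and few B lymphocytes (1 and 4 cells). The part of these values in the NKT share was not tested.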

How the results depend on the processing

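Of 193 alternative values over 11 main results with a sign, 188 kept it. The side of the threshold was kept in 105 of 108 limma or edgeR alternatives. The exact tests with few samples could mostly not pass, so nothing is read from their side of the threshold. The NKT share of all cells passed without Controls 3 and 4 (1.99), and the UMI difference from CD4 T cells passed with a minimum of 10 cells (-0.30). The sign changed for the share of immune cells with the sample number as a replicate block (0.30), for the UMI difference from CD8 T cells at a minimum of 1000 UMIs (-0.0105), and for the mitochondrial difference relative to lymphoid cells (0.355). Among single values, the difference from CD8 effector cells in genes at 1500 UMIs changed sign with at least 10 cells (0.013), at a minimum of 1000 UMIs (0.0029), without UUO 1 (0.00043) and without UUO 2 (0.0043; -0.0187 to 0.0043 over all libraries left out), and that from Treg cells without cells at or above 10% mitochondrial UMIs (-0.0268). The causes were not tested. Leaving out each library in turn gave 0.93 to 2.08 for the share of all cells, -0.51 to -0.07 of immune cells and -0.86 to -0.43 of lymphoid cells. With the replicate block the first and last were 2.18 and -0.15. Whether same-numbered samples share more than a number is not given in the labels. Deviations over classes correlated at -0.25 for number 1 and -0.0037 for number 2. With only 2 UUO samples their deviations are equal in size and opposite in sign, so these correlations cannot decide it. For the per-cell and embedding results the replicate block needs Controls 1 and 2, and so the minimum of 10 cells, a setting chosen after seeing the data. Over those 2 pairs UMIs and genes passed in limma, at 0.76 and 0.55 (adjusted p = 0.00882 and 0.0157). Before adjustment the limma p was 0.00378 and 0.00695. So small a rise under Benjamini-Hochberg needs many other classes to have passed too. Their number is not given here, and the pass is not read as particular to NKT cells. The mitochondrial difference and genes at 1500 UMIs changed sign, at 0.149 and -0.0272. Position and neighbours were 0.251 and 2.89. With 2 pairs the exact tests, the blocked ratios included, could not pass. NKT cell numbers of 12 to 68 per Control library limit every value.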
